A study of Mus musculus with 6 samples.

Results

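A set of 10 genes was followed here under the heading of fatty acid synthesis. They were Acly, Aacs and Me1, which supply cytosolic acetyl and acetoacetyl units and NADPH; Acaca, Fasn, Thrsp and Mid1ip1, which make the fatty acid chain or assist its making; the desaturases Scd1 and Fads1; and Lpin1, which acts in lipid assembly. The members were chosen by name, with their difference between the groups already known from earlier results of these data, so that difference is given below as a description and not tested on them. All 10 were found among the 12149 genes of the table, by Ensembl identifier and GENCODE M21 symbol.

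The RNA of single mouse blastocysts of embryonic day 3.5, on a C57BL/6 background, was sequenced in 2 groups of 3 embryos. The Dep embryos came from zygotes that received sperm small RNAs of males made depressive by stress, and the Ctl embryos from zygotes that received those of normal males, in both groups at 2 ng/µl. All 6 embryos were therefore injected ones, collected about 96 h later, and uninjected embryos were not analysed here. The labels do not state which embryos shared parents, an injection day or a pool of sperm RNA, so the p-values below measure only the spread between these embryos, which may be technical.

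In the cytosol, fatty acids are built from acetyl-CoA that has left the mitochondrion as citrate. Acetyl-CoA is carboxylated to malonyl-CoA, fatty acid synthase joins these units into palmitate with the use of NADPH, and desaturases and acyltransferases turn the product into membrane and storage lipid. In many mammalian tissues the genes of this route are driven together by the SREBP transcription factors, and by the sugar-responsive factor ChREBP. Early mouse embryos carry lipid stores from the oocyte, and the blastocyst also has to build membrane for its trophectoderm, epiblast and primitive endoderm.

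Each library held 16543356 to 21548220 reads in the genes of the table. Dep 1 stood apart, since 691 of the genes had no read in it, while the other 5 libraries lacked reads for 5 to 106 genes. Mitochondrially encoded genes took 3.71%, 3.05% and 4.003% of the reads in Dep 1, 2 and 3, against 7.02%, 3.85% and 7.04% in Ctl 1, 2 and 3, so that Ctl 1 and Ctl 3 were high and Ctl 2 lay among the Dep embryos. The part of this share in the differences below was not tested. All 9 trophectoderm and 8 epiblast markers were detected in the table, and 8 of 9 of primitive endoderm. Gata4 was at 0 in Dep 1 and Ctl 3, and Sox17, Sox7 and the epiblast gene Fgf4 were at 0 in Dep 1. Of 9 cumulus or granulosa markers, 0 were among the genes analysed, and of the oocyte and sperm lists only Zp3 and Prm1 were, with at most 125 and 48.6 normalized counts. Results of the fatty acid synthesis genes are therefore also given without Dep 1 where they rest on it. Log2 folds of other named genes, and the counts and medians of single lists, are given only with Dep 1 included.

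Of the 10 genes, 7 had a higher mean log2 level in Dep than in Ctl, and 3 had a lower one. The 7 were Acly, Scd1, Fads1, Aacs, Fasn, Lpin1 and Acaca, with log2 folds of Dep over Ctl from 0.63 to 1.27, and the 3 were Me1, Mid1ip1 and Thrsp, with -0.59, -0.68 and -1.87. The median of the 10 log2 folds was 0.74, beside -0.02 over all 12149 genes. It was 1.12 without Dep 1, 0.30 without Dep 3 and 0.48 without Ctl 1. These folds are differences of mean log2(normalized count + 1), where a normalized count is a read count divided by the authors' size factor of the library. In 2 of the 10, Acly and Scd1, every Dep embryo lay above every Ctl embryo, an arrangement found in 3.09% of all genes. In 0 of the 10 did every Dep embryo lie below every Ctl embryo, against 3.8% of all genes, and in either direction 6.9% of all genes had groups that did not overlap. The genes were chosen on this contrast, so nothing is read from these shares. In whole embryos, fewer cells of a type and less RNA per cell cannot be told apart.

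**Figure D1:**
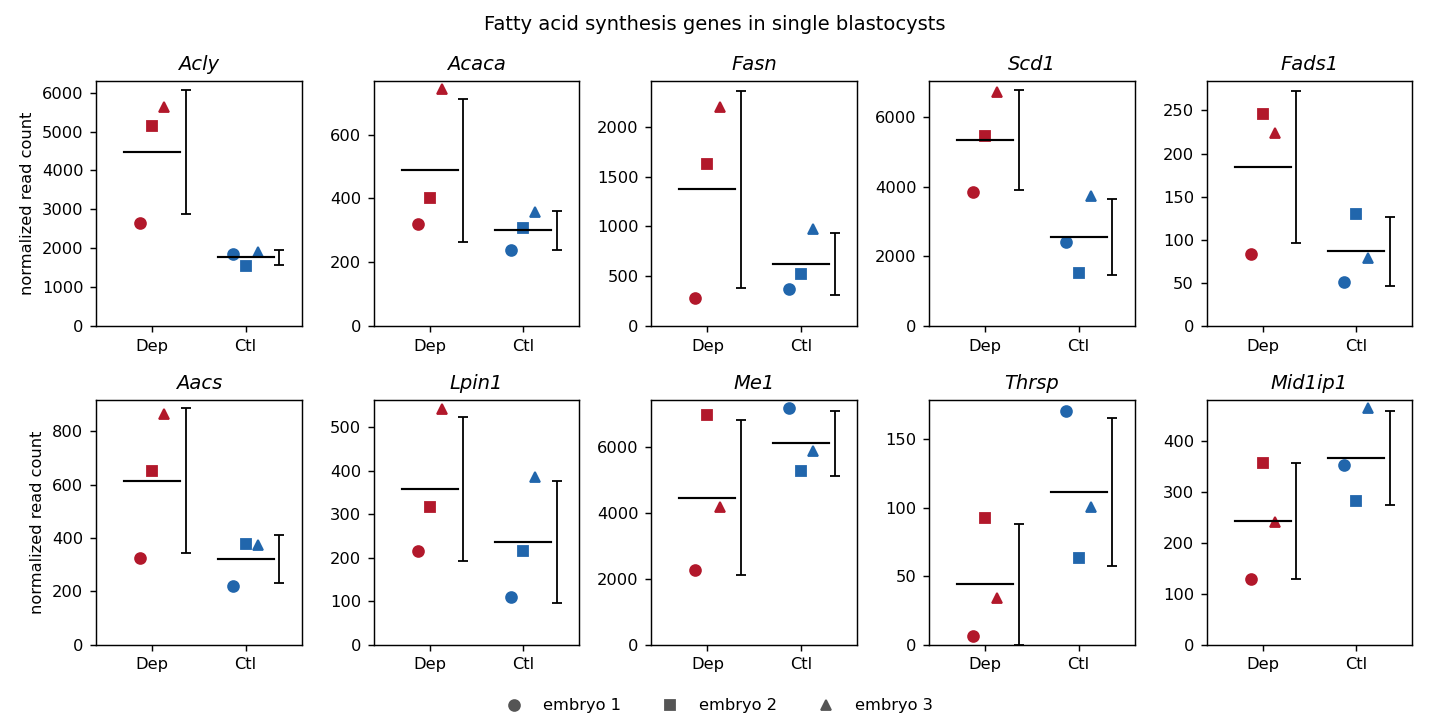
Normalized read counts (vertical axes, from 0) of the 10 genes in 3 Dep and 3 Ctl embryos; symbols give the embryo number, horizontal lines the group means and bars at the side ± 1 SD. Acly and Scd1 have groups that do not overlap, and Dep 1 is the lowest Dep embryo in all 10 panels.

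Among the genes of precursor supply, Acly stood out most. Its product, ATP citrate lyase, cleaves exported citrate into acetyl-CoA and oxaloacetate. Acly had 2660.0, 5140.0 and 5638 normalized counts in Dep 1, 2 and 3, against 1847, 1554 and 1895 in Ctl 1, 2 and 3. The Ctl embryos lay close together, while Dep 2 and Dep 3 were far above them and Dep 1 nearer. The means were 4479 ± 1595 in Dep and 1765 ± 185 in Ctl (SD, n = 3 each). On the log2 scale the difference was 1.27 ± 0.32 (SE), and it stayed between 1.07 and 1.61 when each embryo was left out in turn.

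Aacs encodes acetoacetyl-CoA synthetase, which activates the ketone body acetoacetate for lipid synthesis. It had 324, 652 and 864 normalized counts in Dep 1, 2 and 3, against 218, 377 and 372 in Ctl 1, 2 and 3. Dep 2 and Dep 3 lay above the Ctl embryos, and Dep 1 lay among them. The log2 fold was 0.86 ± 0.45 (SE), 1.26 without Dep 1 and 0.56 without Dep 3.

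Me1, the cytosolic malic enzyme and a source of NADPH, ran the other way. It had 2267, 6954 and 4159 normalized counts in Dep 1, 2 and 3, against 7182, 5268 and 5865 in Ctl 1, 2 and 3. The groups overlapped, since Dep 2 exceeded both Ctl 2 and Ctl 3. The log2 fold of -0.59 ± 0.38 (SE) was -0.17 without Dep 1, -0.98 without Dep 2 and -0.20 with library weights, which gave Dep 1 a weight of 0.314. An annotated antisense gene shares 30 exon bases with Me1, and the cDNA kit does not mark strand.

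Among the 10 genes, Fasn was second to Thrsp in its spread between embryos of a group. Fatty acid synthase had 283, 1629 and 2201 normalized counts in Dep 1, 2 and 3, against 369, 526 and 972 in Ctl 1, 2 and 3. Dep 2 and Dep 3 were the highest of the 6 embryos and Dep 1 the lowest. The within-group SD on the log2 scale was 1.23 for Fasn, against a median of 0.54 over all genes. The log2 fold of 0.81 ± 0.69 (SE) depended on single embryos, at 1.72 without Dep 1, 0.24 without Dep 3, 0.46 without Dep 2 and 0.49 without Ctl 1. With library weights it was 1.32.

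Acaca encodes the cytosolic acetyl-CoA carboxylase, the committing enzyme of the route. Its normalized counts were 321, 401 and 742 in Dep 1, 2 and 3, against 237, 306 and 357 in Ctl 1, 2 and 3. Dep 3 alone was far from the other 5 embryos, and Dep 1 lay among the Ctl embryos. The log2 fold was 0.63 ± 0.43 (SE), 0.88 without Dep 1 and 0.28 without Dep 3.

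Thrsp and Mid1ip1 encode related small proteins without enzyme activity of their own. In mouse, the Mid1ip1 product promotes the assembly of acetyl-CoA carboxylase into active polymers, and the Thrsp product can pair with it. Thrsp had 6.07, 92.3 and 33.7 normalized counts in Dep 1, 2 and 3, against 170.4, 63.5 and 101 in Ctl 1, 2 and 3. Dep 1 was lowest with only 5 reads, and Dep 2 lay within the Ctl range. The log2 fold of -1.87 ± 1.03 (SE) was -0.87 without Dep 1 and -0.95 with library weights.

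Mid1ip1 had 129, 357 and 242 normalized counts in Dep 1, 2 and 3, against 354, 282 and 465 in Ctl 1, 2 and 3. Dep 1 and Dep 3 were the lowest embryos, and Dep 2 lay among the Ctl embryos. Its log2 fold was -0.68 ± 0.48 (SE), -0.29 without Dep 1 and -0.34 with library weights. An annotated antisense gene shares 543 exon bases with Mid1ip1, so reads of these genes cannot be told apart there.

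Both desaturases had higher means in Dep. Scd1 encodes the stearoyl-CoA desaturase, which makes oleate and palmitoleate. It had 3849.8, 5451 and 6708 normalized counts in Dep 1, 2 and 3, against 2414, 1527 and 3721 in Ctl 1, 2 and 3. The groups did not overlap, but Dep 1 and Ctl 3 were nearly level. The log2 fold was 1.12 ± 0.36 (SE), between 0.80 and 1.44 when each embryo was left out in turn.

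Fads1 encodes a front-end desaturase on the path to arachidonate. It was a low gene, with 43 to 266 reads per library, and had 83.8, 246 and 224 normalized counts in Dep 1, 2 and 3, against 50.9, 129 and 79.4 in Ctl 1, 2 and 3. Dep 1 lay below Ctl 2, and the groups overlapped. The log2 fold was 1.04 ± 0.66 (SE), 1.53 without Dep 1 and 0.71 without Ctl 1.

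Lpin1 encodes a phosphatidate phosphatase that makes diacylglycerol for storage and membrane lipid. It had 216, 317 and 542 normalized counts in Dep 1, 2 and 3, against 109, 215 and 387 in Ctl 1, 2 and 3. The embryos of both groups were spread over a similar width and interleaved. The log2 fold of 0.68 ± 0.56 (SE) was 0.99 without Dep 1, 0.21 without Ctl 1, 0.33 without Dep 3 and 1.12 without Ctl 3.

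Compared per length, the 10 genes spanned a wide range of abundance. FPKM, computed from the reads and the exon length of each gene, had medians over the 6 embryos of 81.5 for Me1, 40.5 for Scd1 and 22.3 for Acly. A second tier held Mid1ip1 at 7.93, Aacs at 5.46 and Fasn at 3.87 FPKM. Thrsp at 1.97, Lpin1 at 1.52, Fads1 at 1.22 and Acaca at 1.09 FPKM were lowest. Ranges over the embryos overlapped between all neighbours in this order except Acly (16.4 to 65.2 FPKM) and Mid1ip1 (2.89 to 12.5 FPKM). Scd1 exceeded Acly in 6 of 6 embryos despite the overlap. Me1 exceeded Scd1 in 4 of 6, among them all 3 Ctl embryos, and Scd1 was the higher in Dep 1 and Dep 3.

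**Figure D2:**
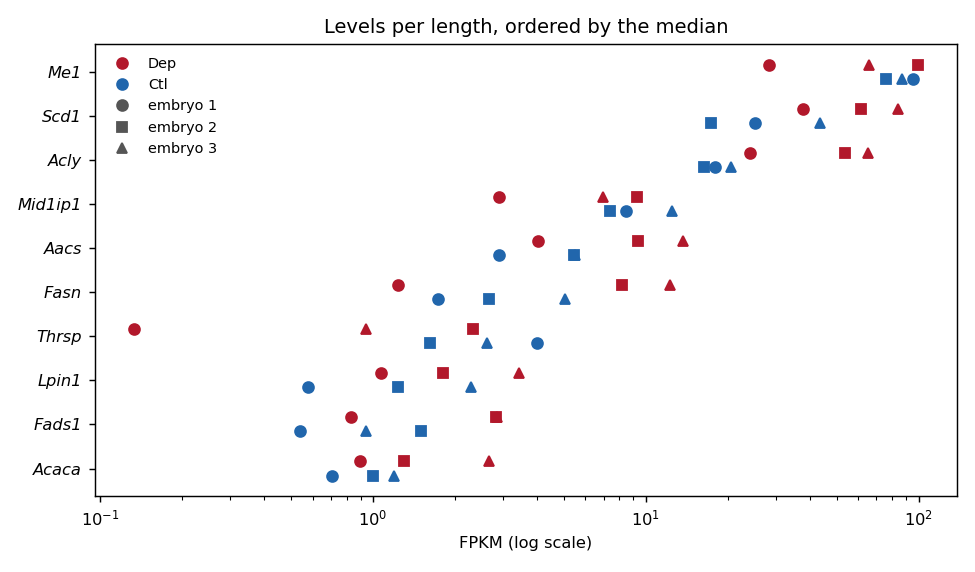
FPKM (horizontal log axis) of the 10 genes in each embryo, Dep above Ctl within a gene, ordered by the median over embryos. Me1, Scd1 and Acly lie above 16 FPKM in every embryo, and the other 7 lie below 14 FPKM.

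The same values can also be arranged by embryo number. The labels number the embryos of both groups 1 to 3 without saying that a number pairs them. Over all genes, deviations from group means correlated weakly between same-numbered embryos, with Pearson r of 0.133, 0.151 and 0.129 for numbers 1, 2 and 3. Between embryos of different numbers r ran from -0.158 to 0.0445. With 3 embryos per group these values cannot settle whether the numbers mark pairs. For 6 of the 10 genes (Acly, Acaca, Scd1, Fads1, Aacs and Lpin1) Dep was higher than Ctl in all 3 same-numbered pairs, against 12.6% of all genes. The genes were chosen on the difference between the groups, so nothing is read from this share. The ratios for Acly were 1.44, 3.31 and 2.97 in pairs 1, 2 and 3, and for Lpin1 1.99, 1.48 and 1.40. Fasn was lower in Dep in pair 1, with a ratio of 0.766, and higher in the others, with 3.10 and 2.27. Me1, Thrsp and Mid1ip1 shared 1 pattern, being lower in Dep in pairs 1 and 3 and higher in pair 2, with ratios in pair 2 of 1.32, 1.46 and 1.27.

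**Figure D3:**
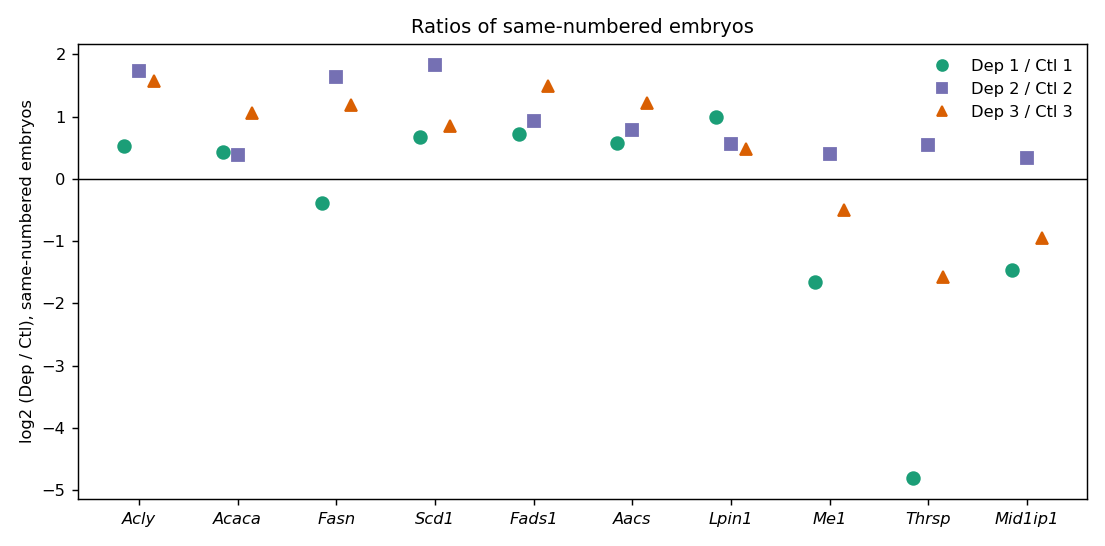
Log2 ratio of Dep to Ctl (vertical axis) for each same-numbered pair of embryos; 0 means equal levels. All 3 pairs lie above 0 in 6 genes, and pair 2 lies above pairs 1 and 3 in Me1, Thrsp and Mid1ip1.

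Some of the 10 genes were closely related in how they varied between embryos of 1 group, and others were not. Dep 1 was the lowest Dep embryo in 10 of 10 genes, compared with 41.3% of all genes. This was not particular to the 10, since it held for 17 of 19 sterol synthesis genes. It also held for 7 of 8 epiblast and 7 of 8 primitive endoderm markers. Among all 146 lipid genes outside the 10 it held for 71, and among 9 trophectoderm markers for 1. Deviations of log2 levels from the group means, taken over the 6 embryos, correlated most closely among Me1, Thrsp and Mid1ip1, with Pearson r of 0.99 for Me1 with Thrsp, 0.90 for Me1 with Mid1ip1 and 0.91 for Thrsp with Mid1ip1. Fasn and Aacs (0.93), Acly and Fasn (0.91) and Fads1 and Aacs (0.91) were close too. Over the 21 pairs among the 7 genes with higher means in Dep, r ran from 0.10 for Scd1 with Fads1 to 0.93, with a median of 0.70. Between those 7 and the other 3 it ran from 0.11 for Me1 with Lpin1 to 0.86, with a median of 0.50. These are descriptions over 6 embryos that share their library depth and size factor between genes, and the low values of Dep 1 enter every pair. Deviations also cancel out within each group, so fewer than 6 values are independent.

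**Figure D4:**
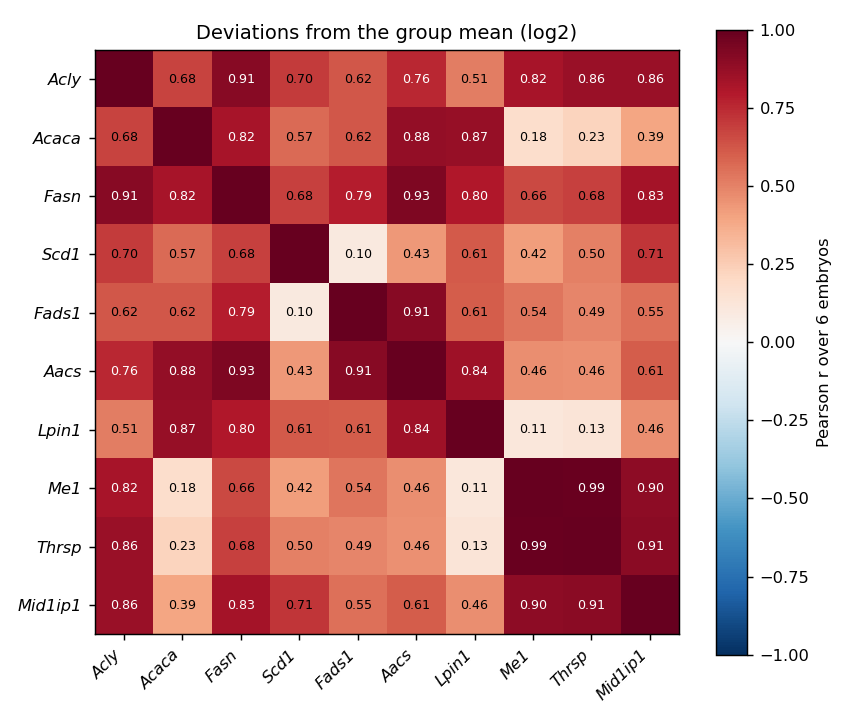
Pearson r between genes of their log2 deviations from the group mean, over 6 embryos; the color runs from -1 to 1 and the values are printed. Me1, Thrsp and Mid1ip1 form the closest block, at 0.90 to 0.99.

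Levels of lineage markers moved between the same embryos. The mean log2 level of the 8 detected primitive endoderm markers was 6.05, 10.11 and 10.11 in Dep 1, 2 and 3, against 8.94, 9.84 and 6.73 in Ctl 1, 2 and 3. Their summed normalized counts, mostly Dab2, ranged from 20589.8 (Dep 2) to 25773 (Dep 1) in Dep and from 20699 to 24333 in Ctl. The summed epiblast markers ranged from 6254 (Dep 1) to 11715 in Dep and from 6719 to 9677 in Ctl. The summed trophectoderm markers ranged from 40733 to 104040.4 (Dep 1) in Dep and from 47239 to 72377 in Ctl. For the 8 epiblast markers the mean log2 levels were 7.43, 9.02 and 8.72 in Dep 1, 2 and 3, against 8.66, 9.23 and 8.79 in Ctl 1, 2 and 3. For the 9 trophectoderm markers they were 11.73, 10.34 and 10.78 in Dep 1, 2 and 3, against 10.98, 11.18 and 10.56 in Ctl 1, 2 and 3. The mean of the 10 fatty acid synthesis genes, each centred on its own mean log2 level, was -0.79, 0.63 and 0.64 in Dep 1, 2 and 3, against -0.37, -0.28 and 0.15 in Ctl 1, 2 and 3. By these means, Dep 1 was the lowest embryo for the 10 genes and for the epiblast and primitive endoderm lists, and the highest for the trophectoderm list. By summed counts it was also lowest for epiblast and highest for trophectoderm, but highest for primitive endoderm. The part of lineage markers in the levels of the 10 genes was not tested.

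Leaving out 1 embryo changed how many of the 10 genes had groups that did not overlap, a view added after the data were seen. Without Dep 1 these were 6 genes with Dep higher (Acly, Acaca, Fasn, Fads1, Scd1 and Aacs), where 9.47% of all genes did so, and 0 with Dep lower, against 9.9%. Without Dep 2, Me1, Thrsp and Mid1ip1 had every Dep embryo below every Ctl embryo, as 8.43% of all genes did, while Acly and Scd1 stayed apart with Dep higher, against 7.03%. Without Dep 3 the counts were 2 higher and 0 lower, with 10% and 10.8% of all genes. Without Ctl 1 they were 2 higher and 0 lower, with 5.71% and 7.24% of all genes. Fads1 joined Acly and Scd1 on the higher side without Ctl 2, and Thrsp stood alone on the lower side, with 7.77% and 8.42% of all genes. Acaca and Lpin1 joined Acly and Scd1 without Ctl 3, with 6.45% of all genes, and 0 genes were lower, with 6.72%. These counts describe the embryos and were not tested.

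The promoters of 8 of the 10 genes were matched by symbol in RefSeq windows on GRCm38.p6 that run from 250 bases before to 50 bases after the annotated start. Those of Scd1 and Fads1 were not. Both strands were searched for 4 motifs of factors known from lipid gene promoters. The NF-Y box, CCAAT, was present for 4 of the 8 genes (Acly, Fasn, Me1 and Thrsp), against 37.4% of all 32851 windows of that length. That share is per window, while Me1 has 2 windows, and its NF-Y box is in the one that lies inside the gene and not in the one at its outer start. The box bound by Sp1-type factors, GGGCGG, was present for 3 (Acly, Me1 and Mid1ip1), against 35.7%. The Mid1ip1 window, 10717115 to 10717414, also lies inside its gene, whose outer start is at 10715013. A sterol regulatory element core, TCACNCCAC, was found for 0 of the 8, against 1.24% of all windows. The E-box CACGTG was likewise found for 0 of the 8, against 7.15%, which says only that these letters are not in these windows. Of the 4 genes with a window and the highest log2 folds, Acly and Fasn are shown since their windows hold matches, and those of Aacs and Lpin1 hold none. Capitals mark the matches, in the 5′ to 3′ direction of the gene, at chr11:100527951-100528250 for Acly and chr11:120824498-120824797 for Fasn, both on the minus strand.
Acly: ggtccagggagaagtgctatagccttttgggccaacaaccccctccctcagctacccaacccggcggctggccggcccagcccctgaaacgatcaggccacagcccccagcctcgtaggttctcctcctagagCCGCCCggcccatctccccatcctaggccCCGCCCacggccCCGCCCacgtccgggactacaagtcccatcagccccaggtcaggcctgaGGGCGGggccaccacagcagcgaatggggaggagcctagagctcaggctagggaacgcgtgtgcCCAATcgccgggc
Fasn: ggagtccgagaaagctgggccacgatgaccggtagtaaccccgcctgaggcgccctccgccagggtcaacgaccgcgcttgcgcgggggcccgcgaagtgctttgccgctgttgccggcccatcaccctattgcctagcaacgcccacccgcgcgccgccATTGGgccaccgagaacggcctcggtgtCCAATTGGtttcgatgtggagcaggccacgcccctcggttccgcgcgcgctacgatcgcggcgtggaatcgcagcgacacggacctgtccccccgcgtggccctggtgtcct

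In Acly, Sp1-type boxes on the reverse strand begin at 117, 88 and 76 bases before the start and 1 on the forward strand at 27 bases before it, with an NF-Y box at base 38 after it. In Fasn, a reverse NF-Y box begins 90 bases before the start, and a forward and a reverse box at 62 and 59 bases before it overlap by 2 bases. Thrsp, which had the lower mean in Dep, also has a reverse and a forward NF-Y box, at 79 and 52 bases before its start. In GRCm38 (GENCODE M21), Acly (ENSMUSG00000020917) spans 100476353 to 100528000 on chromosome 11 and Fasn (ENSMUSG00000025153) 120805846 to 120824547 on the same chromosome. Scd1 (ENSMUSG00000037071) spans 44394455 to 44407879 on chromosome 19, Me1 (ENSMUSG00000032418) 86581371 to 86695953 on chromosome 9 and Thrsp (ENSMUSG00000035686) 97412938 to 97417730 on chromosome 7. Acaca (ENSMUSG00000020532) spans 84129672 to 84401651 on chromosome 11, and Fads1 (ENSMUSG00000010663) 10182888 to 10196877 on chromosome 19. Aacs (ENSMUSG00000029482) spans 125475814 to 125517410 on chromosome 5, Lpin1 (ENSMUSG00000020593) 16535669 to 16610966 on chromosome 12 and Mid1ip1 (ENSMUSG00000008035) 10715013 to 10719690 on chromosome X. All 10 genes are annotated as protein-coding.

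Whether other lipid genes differed between the groups was tested in the same fit. Of 146 measured lipid genes in 8 lists, 0 passed (limma, Benjamini-Hochberg over all 12149 genes, smallest adjusted p = 0.9997), as 0 of all genes did (0%). At an unadjusted p under 0.05 there were 14 of the 146, 13 higher and 1 lower in Dep, against 1.85% of all genes. edgeR called 0 of the 146 and had 13 at the unadjusted threshold, where it had 211 over all genes. DESeq2 called 0 of the 146, against 0.00824% of all genes, and had 16 at the unadjusted threshold, where it had 279 over all genes. The median log2 fold was 0.14 over the 146 genes and 0.06 over the 127 that remain when sterol synthesis is left out, a split chosen after the data were seen, with 7 of the 127 at the unadjusted threshold. The sterol list itself had 17 of 19 genes with a log2 fold above 0, against 48.2% of all genes, and a median of 0.51. At the unadjusted threshold it had 7 genes, all higher in Dep. In 7 of its 19 genes every Dep embryo lay above every Ctl embryo, against 3.09% of all genes. The lists too were chosen with earlier results of these data known, so nothing is read from their shares, here or below. Named from the genes with groups apart, by largest log2 fold, were Fdps, Mvd, Idi1 and Fdft1, enzymes between mevalonate and squalene. Their log2 folds were 1.66, 1.32, 1.27 and 1.17 (limma, adjusted p = 0.9997 each). For Fdft1, the normalized counts in Dep 1 (1831) and Ctl 1 (1805) were nearly level.

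None of the genes that feed or extend the route passed the test (limma, smallest adjusted p = 0.9997). In the list of acetyl-CoA, citrate and NADPH supply, 12 of 18 genes had a log2 fold above 0, with a median of 0.20. In 2 of the 18 genes every Dep embryo lay above every Ctl embryo, against 3.09% of all genes, and in 0 below, against 3.8%. The 2 were the mitochondrial carriers Slc25a11 (oxoglutarate and malate) and Slc25a10 (dicarboxylates). Slc25a11 averaged 3147 ± 818 in Dep and 1926 ± 269.8 in Ctl (normalized counts, SD, n = 3 each). Slc25a10 averaged 2217 ± 111 in Dep and 1533 ± 456 in Ctl. Slc25a1, the citrate carrier, had 152, 1409 and 1145 in Dep 1, 2 and 3, against 331, 220.4 and 473 in Ctl 1, 2 and 3. Like Fasn, it was lowest in Dep 1 and highest in Dep 2 and Dep 3. Acss2, which makes cytosolic acetyl-CoA from acetate, averaged 633 ± 159 in Dep and 562 ± 223 in Ctl, with overlapping groups.

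In the list of synthesis, elongation and desaturation partners, 13 of 18 genes had a log2 fold above 0, with a median of 0.08. Elovl6, which lengthens palmitate, was as abundant per length as Me1, at a median of 81.5 FPKM, with 9478 ± 633 normalized counts in Dep and 9235 ± 1239.5 in Ctl (SD, n = 3 each) and a log2 fold of 0.04 ± 0.25 (SE). Scd2, a close relative of Scd1, had 2968, 8526 and 7861 normalized counts in Dep 1, 2 and 3, against 5819, 3369.7 and 5365 in Ctl 1, 2 and 3. Unlike Scd1 it overlapped between groups, with a log2 fold of 0.31 ± 0.41 (SE), and how reads were divided between these relatives is not known. Acacb, the mitochondrial carboxylase, averaged 179 ± 166 in Dep and 228 ± 37.6 in Ctl. Every Dep embryo lay above every Ctl embryo in 1 of the 18 genes and below in 1, against 3.09% and 3.8% of all genes. Mecr, an enzyme of mitochondrial fatty acid synthesis, was the higher one, at 951 ± 208 in Dep and 675 ± 46.9 in Ctl. Its values in Dep 2 (730) and Ctl 2 (721) were nearly level. Cyb5r3, a reductase that serves desaturases, was the lower one, at 4199 ± 608 in Dep and 5244 ± 190.3 in Ctl. Fads2 was not analysed here.

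In glycerolipid assembly and lipid droplets, 11 of 26 genes had a log2 fold above 0, with a median of -0.10. Pcyt2, of phosphatidylethanolamine synthesis, averaged 1561 ± 433 normalized counts in Dep and 793 ± 135 in Ctl (SD, n = 3 each; log2 fold 0.95 ± 0.32 SE). Gpat4, a glycerol-phosphate acyltransferase, averaged 1115 ± 146 in Dep and 631 ± 143 in Ctl. Fitm2, an endoplasmic reticulum protein of droplet formation, averaged 214 ± 25.4 in Dep and 159 ± 21.5 in Ctl. In these 3 of the 26 genes every Dep embryo lay above every Ctl embryo, as in 3.09% of all genes, and none passed the test (limma, adjusted p = 0.9997 each). The Lpin1 relatives Lpin2 and Lpin3 had overlapping groups. Lpin2 had 0, 117 and 101 normalized counts in Dep 1, 2 and 3, against 9.47, 76.8 and 54.7 in Ctl 1, 2 and 3, and Lpin3 averaged 315 ± 87.4 in Dep and 233 ± 91.2 in Ctl.

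For uptake and activation, 7 of 13 genes had a log2 fold above 0. Fabp5, a fatty acid binding protein with a median of 123 FPKM over the 6 embryos, had 7499, 7398 and 4620.3 normalized counts in Dep 1, 2 and 3, against 13674, 8467 and 11857 in Ctl 1, 2 and 3. Every Dep embryo lay below every Ctl embryo, as in 1 of the 13 genes and 3.8% of all genes. The log2 fold of Fabp5 was -0.81 ± 0.30 (SE; limma, adjusted p = 0.9997). For fatty acid oxidation, 14 of 20 genes had a log2 fold above 0, with a median of 0.08, and in 0 of the 20 were the groups apart, beside 6.9% of all genes in either direction. The 2 of largest log2 fold were Cpt1c, a carnitine palmitoyltransferase relative, with -1.95 ± 1.05 (SE), and Eci1, an enoyl-CoA isomerase, with 0.91 ± 0.41 (SE). Cpt1c had 6.07, 74.5 and 69.9 normalized counts in Dep 1, 2 and 3, against 60.4, 123 and 286 in Ctl 1, 2 and 3. Its log2 fold therefore rests in part on Dep 1, where it was near the floor. Of 4 ketone body genes, 2 had a log2 fold above 0. Bdh1, a hydroxybutyrate dehydrogenase, had 0.56 ± 0.56 (SE), and Oxct1, which uses acetoacetate in mitochondria, -0.44 ± 0.33 (SE).

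Among regulators, 17 of 28 genes had a log2 fold above 0, with a median of 0.10. Srebf1, the SREBP gene most tied to fatty acid synthesis, had 208, 815 and 974 normalized counts in Dep 1, 2 and 3, against 352, 518 and 513 in Ctl 1, 2 and 3. Srebf2, the SREBP gene most tied to sterol synthesis, had 231, 945 and 1475 in Dep 1, 2 and 3, against 485, 316 and 552 in Ctl 1, 2 and 3. Both shared the order seen in Fasn and Slc25a1, with Dep 1 lowest of the 6 and Dep 2 and Dep 3 highest, an order noticed after the data were seen and found in 482 genes, or 3.97% of all. It was also found in 13 of the 146 lipid genes outside the 10.

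Insig1, which retains SREBP in the endoplasmic reticulum and is itself an SREBP target, averaged 1228 ± 539 normalized counts in Dep and 505 ± 122 in Ctl (SD, n = 3 each), with groups that did not overlap. Scap, the escort of SREBP, averaged 334 ± 145 in Dep and 289.9 ± 147 in Ctl, and Insig2 531 ± 71.3 in Dep and 556 ± 153 in Ctl. Mlxipl, the ChREBP gene, was low, with 0, 44.7 and 158 in Dep 1, 2 and 3, against 42.6, 33.4 and 111 in Ctl 1, 2 and 3. Prkaa2, a catalytic subunit of the energy-sensing kinase AMPK, was lower in every Dep embryo, at 252 ± 20.6 in Dep and 435 ± 165 in Ctl. Its groups were barely apart, with 272 in Dep 2 and 275 in Ctl 3. Usf1, an E-box factor, averaged 1541 ± 438 in Dep and 1092 ± 84.3 in Ctl. Brca1, whose product binds the phosphorylated carboxylase, averaged 1059 ± 166 in Dep and 773 ± 155 in Ctl. Both had groups apart by little, with 1215 in Dep 3 and 1189 in Ctl 1 for Usf1. For Brca1 these were 934 in Dep 1 and 930 in Ctl 1. None of these regulators passed the test (limma, adjusted p = 0.9997 each). Among the 28 regulators, groups were apart in 3 with Dep higher and in 1 with Dep lower, against 3.09% and 3.8% of all genes. These were Insig1, Usf1, Brca1 and Prkaa2.

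**Figure D5:**
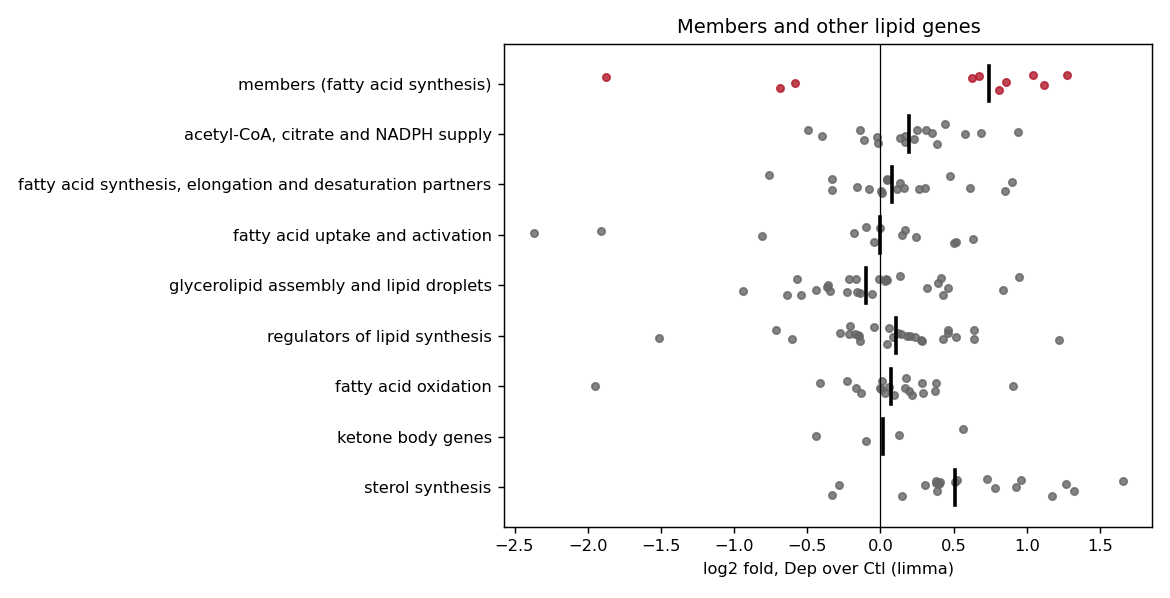
Log2 folds of Dep over Ctl (horizontal axis) of the 10 members and of the genes of 8 other lipid lists, 1 point per gene, with the median of each list as a bar. The members split into 7 above and 3 below 0, and the other lists have medians from -0.10 to 0.51.

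The genes whose levels followed the mean of the 10 most closely over the 6 embryos, among genes with a mean of 100 normalized counts or more, were Pskh1 (Pearson r = 0.997), Gaa (0.993), Abcb6 (0.99), Nle1 (0.989), Ipo4 (0.986), Slc15a4 (0.974), Gpd1l (0.973) and Adck5 (0.973). Each had Dep 2 and Dep 3 above the Ctl embryos and Dep 1 below them. These r are descriptions over 6 embryos, being the highest of a search over all such genes. Gaa, the lysosomal alpha-glucosidase, for example, had 663, 2515 and 2149 normalized counts in Dep 1, 2 and 3, against 1015, 1041 and 1480.1 in Ctl 1, 2 and 3.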

How the data were processed

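The deposited table gives normalized counts per gene and embryo (a signal: reads that the authors scaled by a constant for each library). Per the file headers it also gives a log2 fold change with its error, a statistic (a score), p-values and adjusted p-values for the authors' comparison, which were not used here. HISAT2, Cufflinks 2.2.1 and the build mm10 are listed in the submitters' processing notes with no roles; how reads were counted, and with which annotation, is not given in the sources used here. Per the labels' protocols, cDNA was made with SMART-Seq v4, a kit that does not mark strand.

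Low values were whole multiples of the value of 1 read in each library, and 100% of values gave whole reads (tolerance 0.01). In Dep 2 that value is 0.993, too near 1 to tell the scaled values from reads automatically. No gene in it averaged under 14.2 normalized counts. Of 12149 identifiers, 11829 matched GENCODE M21 and 320 did not.

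All genes were fitted with limma 3.58.1 (mean-variance trend) on log2(normalized count + 1), with Benjamini-Hochberg adjustment and a threshold of 0.05 (R 4.3.3, Python 3.11.15). The added 1 shrinks changes of low genes, but a mean of log2 levels also lets 1 embryo with few reads enlarge them. The log2 fold of Thrsp was -1.87 in this fit, -1.33 with edgeR and -1.34 with DESeq2. Alternatives were edgeR 4.0.16 and DESeq2 1.42.0 on the recovered reads, other pseudocounts and scalings, library weights, no trend, a mean minimum of 100, a replicate block and each embryo left out. FPKM used union exon lengths and the reads in the table. The fit was tested on simulated data, with changes larger than the log2 fold of any member and no library set apart as Dep 1 was. That test therefore does not show whether changes of the members' size would be found.

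The members and lists were chosen with earlier results of these data known. Beside the members, the text names up to 4 genes of each list with groups apart and the largest log2 fold at a mean of 100 or more (the 2 largest where no groups were apart), 13 measured relatives, partners and regulators, and the 8 genes most like the members' mean. Deviations from group means had r = 0.133, 0.151 and 0.129 between embryos of the same number, and the labels are silent on pairing. The main fit, which gave the log2 folds, SE and limma p-values, did not pair embryos. Numbers were taken as pairs only in the same-numbered ratios and in the replicate block alternative. No library was a duplicate of another. Without molecular identifiers, reads may be copies of the same molecule. Promoter sequences are from RefSeq.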

Additional observations from a re-analysis of the deposited data

How the results depend on the processing

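Under the 16 alternatives, the 7 members with log2 folds above 0 and the 3 below 0 kept their direction in each, except that Thrsp was not tested at a mean minimum of 100. The members' median log2 fold was 0.74 and ran from 0.73 to 0.87 under other settings, and from 0.30 (without Dep 3) to 1.12 (without Dep 1) with each embryo left out. No gene passed the threshold over all genes with limma or edgeR in any setting, and 1 did with DESeq2 (Ly6a, no lipid gene, looked up after the count was seen). The unadjusted count was 225 with limma, 211 with edgeR, 279 with DESeq2, 399 with library weights and 122 to 576 with each embryo left out (474, 349 and 576 without Dep 1, 2 and 3, and 122, 228 and 137 without Ctl 1, 2 and 3). Under the replicate block (pairs by embryo number) it was 420, with 0 genes past the threshold and the members' median at 0.74, and the block changed no call. Of the 146 lipid genes outside the members, 0 passed in any setting, and their median log2 fold ran from 0.07 to 0.19. The number of members whose groups did not overlap with Dep higher was 2 to 6, and with Dep lower 0 to 3, as embryos were left out, an alternative chosen after seeing the data. Depth limits Thrsp and Fads1 most, with 5 and 43 reads in their lowest libraries.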
